A study of Mus musculus with 6 samples.

Results

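Imprinted genes are expressed mainly or only from the copy inherited from one parent. A DNA methylation mark laid down in the egg or the sperm at an imprinting control region sets which copy is used, and the mark is kept through the cell divisions of the embryo. Most imprinted genes lie in clusters, called domains, in which protein-coding genes and long non-coding RNAs share a control region. Many act on growth, on the placenta or on the developing brain, where several are expressed from neural progenitors onward. The 39 imprinted genes examined here were named as a list, and each was read from the array row that carries its symbol alone (the row with the highest mean where a gene has several). Of these, 31 had such a row, among 19938 genes with a row of their own. Mirg, Snrpn, Ube3a and Gnas had only rows shared with other genes, and H19, Peg13, Zrsr1 and Slc22a3 had none and were not analysed here. The measured genes comprise 15 usually expressed from the paternal copy, 13 from the maternal copy and 3 whose imprint depends on isoform or tissue (Grb10, Blcap and Inpp5f).

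The study followed mouse epiblast stem cells (EpiSCs), the pluripotent cells of the post-implantation epiblast, of strain 129 as they were turned into oligodendrocytes, the myelin-forming cells of the brain and spinal cord. EpiSCs were grown in Knockout DMEM with KSR and FGF2. They were exposed over 5 days to SB431542, Dorsomorphin, Noggin, RA and SHH, which gave patterned neural rosettes, whose labelled stage is the ventral neural tube. Dissociated rosettes gave cultures of oligodendrocyte progenitor cells (OPCs), kept in N2B27 medium with FGF2, PDGF-AA and SHH. OPCs became oligodendrocytes when thyroid hormone was added and FGF2 and PDGF-AA were withdrawn. There was 1 array of EpiSCs, 1 of day 5 rosettes, and 1 each of OPCs and of oligodendrocytes at passage 3 and at passage 11, so 6 arrays in all, of total RNA. The OPC and oligodendrocyte pairs therefore hold the difference between passages in their spread. Nothing in the labels tells of separate cultures, so a p-value here rests on the spread between arrays of 2 passages.

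Values are log2 expression levels, and a difference of 1 is a 2-fold difference. A level on one gene's probes cannot be set against another gene's, so each gene is compared only with itself across arrays. The median of all values was 9.0, and the arrays' own medians lay between 8.98 and 9.04. The arrays read RNA from both parental copies together, so a level says nothing of which copy made it. The cultures are bulk samples, in which fewer cells of a type and less RNA per cell cannot be told apart. Each stage was read against marker genes. The 7 EpiSC markers averaged 12.6 in EpiSCs against 8.08 to 8.28 elsewhere. The 7 OPC markers averaged 12.2 and 12.3 in OPCs, against 8.81 in rosettes and 8.32 in EpiSCs, and they stood at 11.9 and 12.1 in oligodendrocytes, close to the OPC level. The 7 astrocyte markers averaged 11.0 and 10.5 in OPCs, against 8.98 in rosettes and 9.17 in EpiSCs. The 6 measured oligodendrocyte markers averaged 12.5 and 12.7 in oligodendrocytes against 8.73 and 8.75 in OPCs. The 7 rosette markers averaged 11.3 in rosettes, against 9.45 in EpiSCs and 9.88 and 9.81 in OPCs. The rosette array also held neuron markers, which averaged 12.03 there and 8.98 in EpiSCs. In the passage 3 oligodendrocyte array, 3 of 11 mesenchyme and 3 of 7 astrocyte markers were at least 2-fold higher than at passage 11, and none 2-fold lower. Among them were Tagln at 13.34, Acta2 at 13.79 and Gfap at 10.50. The astrocyte markers averaged 11.3 in that array, against 11.0 in passage 3 OPCs.

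The imprinted genes were a variable group in these 6 arrays. Of the 31 measured genes, 24 (77.4%) had a range of at least 2-fold between their highest and lowest array, where 28.5% of all genes tested did. These shares were not matched for brightness. The mean of at least 1 group reached the median of all values for 28 of the 31, and for 11601 of all 19938 genes. Ascl2, Magel2 and Mkrn3 had no array above the median of all values, so their differences are between dim readings. Their highest values were 8.39, 8.53 and 8.77. The number of genes that passed the test, an adjusted p under 0.05 over all 19938 genes, differed by comparison. Against EpiSCs, where 7.01% of all genes passed, Phlda2, Calcr, Asb4, Rian and Igf2 were lower and Nap1l5, Nnat and Ndn higher in OPCs. Against rosettes, where 3.13% of all genes passed, Usp29 was lower in OPCs. None of the 31 passed between oligodendrocytes and OPCs or between passages.

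**Figure D1:**
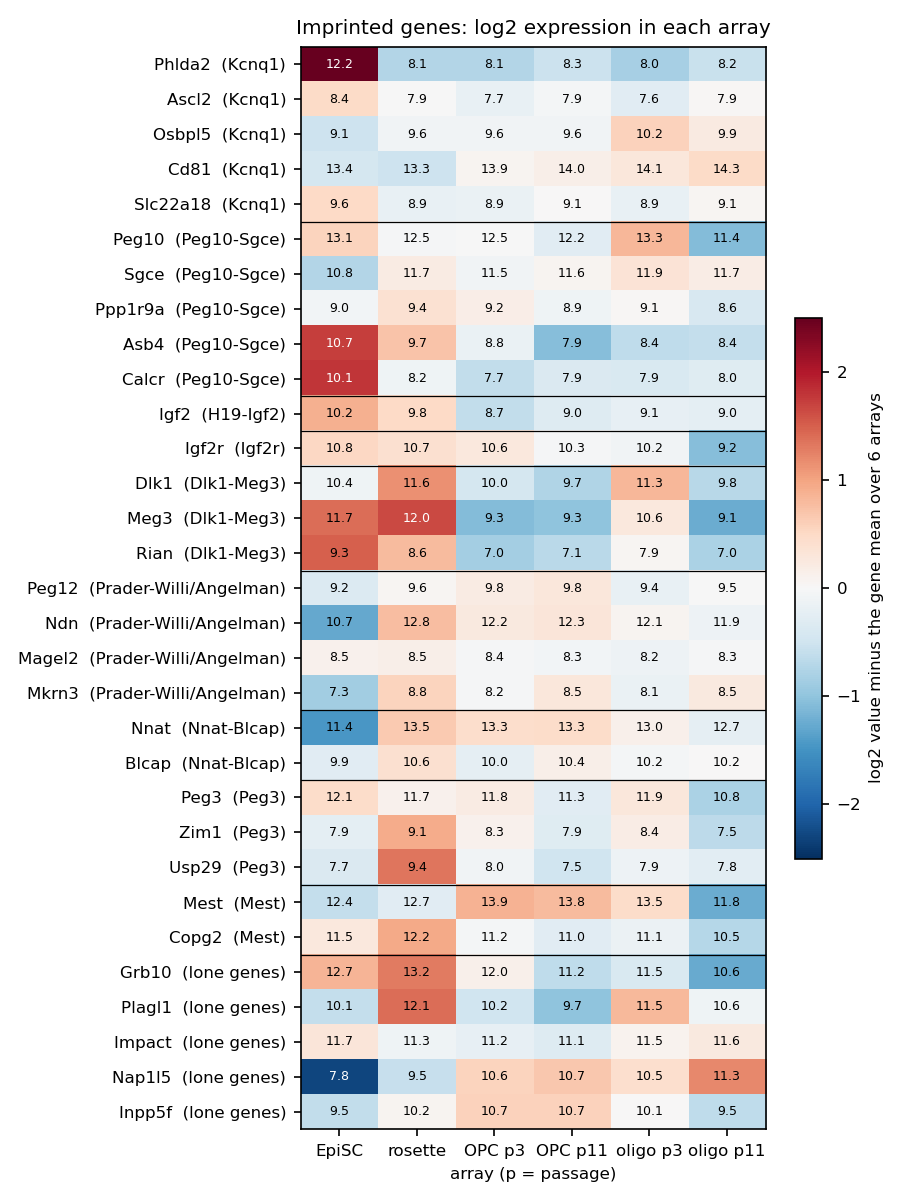
Log2 expression of the 31 measured imprinted genes (rows, grouped by domain) in the 6 arrays (columns, in order of differentiation and passage). Numbers are log2 values and colours show the difference from the gene's own mean over the 6 arrays; Phlda2 stands out by its EpiSC array at 12.20, and Nnat, Ndn and Nap1l5 by their low EpiSC values.

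The first question was how the genes stood in OPCs relative to the pluripotent cells, both of which grow in FGF2. In OPCs 3 of the 31 imprinted genes rose and 5 fell relative to EpiSCs. That is 25.8% of them, where 7.01% of all genes passed, 4.07% as higher and 2.93% as lower. The 5 that fell were a placental growth regulator, a growth factor, a hormone receptor, a ubiquitin ligase adaptor and a non-coding RNA, and the 3 that rose are known from neurons and brain. The median difference over the 31 was -0.17, against -0.05 over all genes tested. The 3 genes that rose are usually paternally expressed, among 15 such genes measured, and of the 5 that fell 4 are maternally expressed, among 13 measured, with Igf2 the paternally expressed one. Without either OPC array 5 of the 31 passed (Phlda2, Calcr, Asb4, Nnat and Nap1l5), where 2.72% of all genes passed without passage 3 and 2.36% without passage 11. Without either oligodendrocyte array 20 of the 31 passed, where 20.8% of all genes did. These counts by allele are descriptions, since the genes and their alleles were chosen with results of these arrays known.

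**Figure D2:**
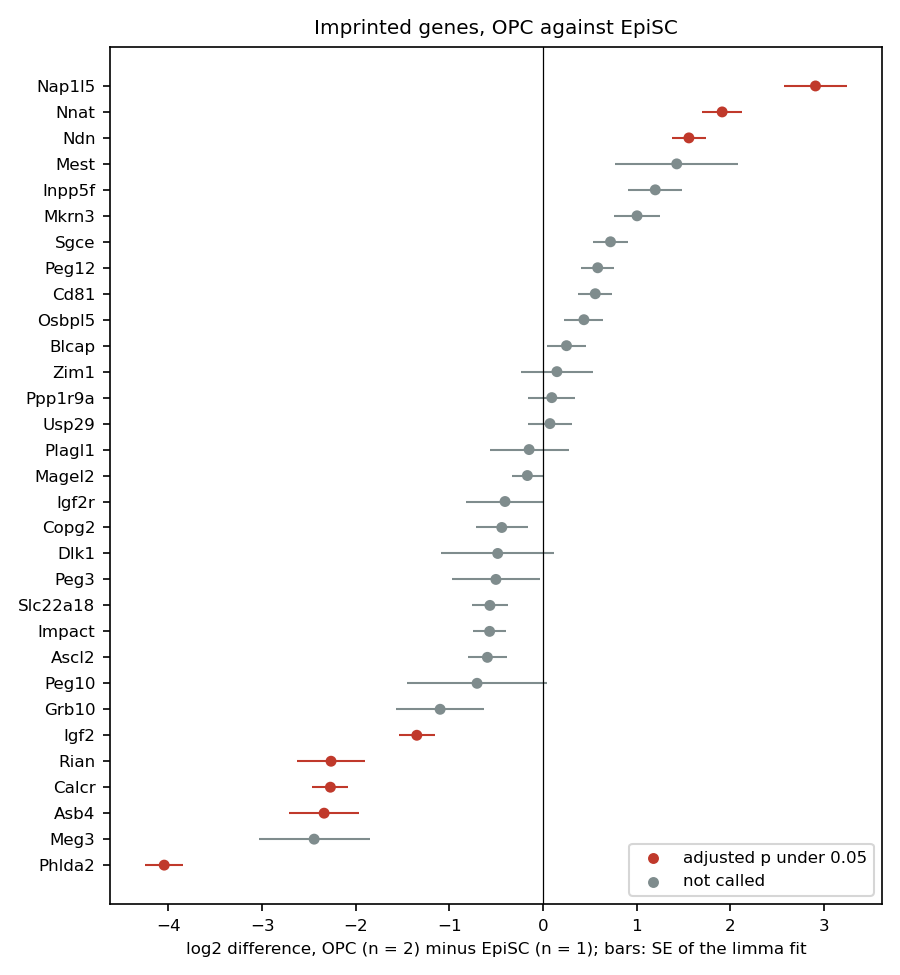
Log2 difference between OPCs (2 arrays) and EpiSCs (1 array) for each measured imprinted gene, with bars for the standard error of the limma fit; red points had an adjusted p under 0.05. The 8 red points are Nap1l5, Nnat and Ndn to the right of 0 and Igf2, Rian, Calcr, Asb4 and Phlda2 to the left.

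Phlda2, which restrains growth of the placenta, had the largest difference among the measured imprinted genes. It lies on chromosome 7 in the Kcnq1 domain, where a long non-coding RNA silences neighbours on the paternal copy. Phlda2 read 8.06 and 8.25 in OPCs against 12.20 in EpiSCs, a difference of -4.04 ± 0.20 (SE, adjusted p = 0.00213) in the limma fit, or 16.5-fold lower. The rosette array was already at 8.07, so the low level was present by day 5, and oligodendrocytes read 7.97 and 8.24. In all 5 arrays outside EpiSCs its level was below the median of all values. None of the other 4 listed genes of the domain passed. Ascl2, a trophoblast transcription factor, read 7.72 and 7.87 in OPCs against 8.39 in EpiSCs (adjusted p = 0.194). Slc22a18, a membrane transporter, read 8.91 and 9.08 against 9.56 (adjusted p = 0.181). Cd81, a tetraspanin that spans the cell membrane, was bright throughout, at 13.92 and 14.01 in OPCs against 13.40 in EpiSCs (adjusted p = 0.165). Osbpl5, a lipid transfer protein, read 9.56 and 9.55 in OPCs and 9.12 in EpiSCs. Since Phlda2 and Ascl2 are genes of the trophoblast, markers of trophoblast and endoderm were read beside them. The 11 markers averaged 8.33 and 8.44 in OPCs and 8.37 in rosettes, against 8.98 in EpiSCs. Of the 11, 10 had a lower mean in OPCs and all 11 a lower value in rosettes than in EpiSCs. Krt8 and Krt18 passed as lower in OPCs. In EpiSCs 5 of the 11 were above the median of all values and 6 below it, with the trophoblast genes Cdx2 (8.45) and Elf5 (7.89) among those below. Their part in the Phlda2 value was not tested.

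The Peg10-Sgce domain on chromosome 6 held genes of both kinds. Calcr, the calcitonin receptor, read 7.69 and 7.95 in OPCs against 10.09 in EpiSCs, a difference of -2.27 ± 0.19 (SE, adjusted p = 0.00486), 4.83-fold lower. Asb4, a substrate adaptor of ubiquitin ligases, read 8.84 and 7.94 in OPCs against 10.73 in EpiSCs, a difference of -2.34 ± 0.37 (SE, adjusted p = 0.0275). Both stood between those levels in the rosette array, Calcr at 8.19 and Asb4 at 9.72. The other 3 listed genes of the domain did not pass. Sgce, a membrane protein of the sarcoglycan family, differed by 0.72 ± 0.18 (SE, adjusted p = 0.0914), with the EpiSC array the lowest of the 6. Peg10, a gene derived from a retrotransposon and needed for the placenta, differed by -0.71 ± 0.75 (SE, adjusted p = 0.765). Ppp1r9a, the actin-binding protein neurabin, differed by 0.09 ± 0.25 (SE, adjusted p = 0.945).

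The growth-factor genes form the best known functional group, since Igf2 promotes fetal growth, Igf2r removes IGF2 from the cell surface and Grb10 dampens insulin and IGF receptor signalling. Igf2 read 8.69 and 8.97 in OPCs against 10.18 in EpiSCs, a difference of -1.35 ± 0.19 (SE, adjusted p = 0.021). Both OPC arrays lay below the rosette level of 9.80 as well, a difference of -0.97 ± 0.19 (SE, adjusted p = 0.077) that did not pass. Igf2r read 10.55 and 10.25 in OPCs against 10.81 in EpiSCs (adjusted p = 0.755). Grb10 read 12.02 and 11.25 in OPCs against 12.73 in EpiSCs and 13.19 in rosettes, and differed from EpiSCs by -1.10 ± 0.47 (SE, adjusted p = 0.278). Passage as a block sets each oligodendrocyte array beside the OPC array of its own passage, and the EpiSC and rosette arrays midway between the passages. A passage difference shared by OPCs and oligodendrocytes then leaves the spread. With the block Grb10 passed against EpiSCs (adjusted p = 0.0211) and against rosettes (adjusted p = 0.0164). Without the block its adjusted p against rosettes was 0.194. Mkrn3 likewise passed against EpiSCs with the block (adjusted p = 0.0246, against 0.0859 without it). Without either OPC array Igf2, Rian and Ndn missed the threshold against EpiSCs, with adjusted p of 0.118 and 0.0698 for Igf2, 0.0804 and 0.0676 for Rian and 0.0609 and 0.0732 for Ndn, for passage 3 and passage 11 left out.

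The genes that rose are known from nerve cells. Relative to EpiSCs, 4 of 9 neuron markers rose in OPCs and 1 fell, and 4 of 7 astrocyte markers rose, and their part in these values was not tested. Nnat, a small membrane protein of the endoplasmic reticulum that is abundant in developing brain, lies on chromosome 2 within an intron of Blcap. Nnat read 13.33 and 13.34 in OPCs against 11.43 in EpiSCs, a difference of 1.91 ± 0.21 (SE, adjusted p = 0.01), 3.76-fold higher. Its rosette value of 13.54 was of that height already, and oligodendrocytes read 13.02 and 12.66. Blcap, which holds Nnat in its intron, read 9.99 and 10.35 in OPCs against 9.92 in EpiSCs (adjusted p = 0.67). Ndn, or necdin, of the MAGE family, acts in neurons and belongs to the Prader-Willi/Angelman domain on chromosome 7. Ndn read 12.24 and 12.31 in OPCs against 10.72 in EpiSCs, a difference of 1.56 ± 0.18 (SE, adjusted p = 0.0114), 2.94-fold higher. None of its 3 measured neighbours passed. Peg12, a relative of GSK3-binding proteins, differed by 0.58 ± 0.18 (SE, adjusted p = 0.143), the ring-finger gene Mkrn3 by 1.002 ± 0.25 (SE, adjusted p = 0.0859), and Magel2, of the MAGE family too, by -0.17 ± 0.17 (SE, adjusted p = 0.741). Nap1l5, a nucleosome-assembly protein gene on chromosome 6 that arose by retrotransposition into Herc3, showed the largest rise. It read 10.62 and 10.73 in OPCs against 7.77 in EpiSCs, a difference of 2.91 ± 0.34 (SE, adjusted p = 0.0114), 7.5-fold higher. Herc3 read 9.62 and 9.43 in OPCs against 9.20 in EpiSCs. Inpp5f, an inositol phosphatase, differed by 1.20 ± 0.29 (SE, adjusted p = 0.0781) and Impact, an inhibitor of the translational kinase GCN2, by -0.57 ± 0.18 (SE, adjusted p = 0.147). Mest, a hydrolase-like enzyme of mesoderm, read 13.90 and 13.81 in OPCs against 12.43 in EpiSCs, a difference of 1.43 ± 0.66 (SE, adjusted p = 0.319) that did not pass.

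Promoter windows are given for 5 of the genes that passed, since imprinting control acts through methylation of the dinucleotide CG. RefSeq windows run from 250 bases before to 50 after the start, on mouse build GRCm38.p6, and were matched by symbol for 28 of the 31 genes. The 40 windows of these genes held a median of 15 CG, where the 32851 windows in the table held a median of 7, and 94.6% of all held at least 1. CG reads the same on both strands, and capitals mark each CG. The 3 promoters of genes higher in OPCs than in EpiSCs are those of Nnat (17 CG), Nap1l5 (17 CG) and Ndn (11 CG). Phlda2 is the gene with the largest fall (26 CG). Usp29 is the gene that fell against rosettes (17 CG), and its window shares 263 bases with that of Peg3, which runs the other way. Windows of the other genes that passed are not printed. They held 0 CG for Rian, 6 and 8 for Asb4, 29 and 4 for Calcr, and 2, 14, 24 and 7 for Igf2. The share of all windows with at least as many CG was 31.4% for 17, 41.4% for 11 and 16.9% for 26. The arrays measured no methylation, so these sequences are a description of the sites.
Nnat promoter, chr2:157559828-157560127, plus strand: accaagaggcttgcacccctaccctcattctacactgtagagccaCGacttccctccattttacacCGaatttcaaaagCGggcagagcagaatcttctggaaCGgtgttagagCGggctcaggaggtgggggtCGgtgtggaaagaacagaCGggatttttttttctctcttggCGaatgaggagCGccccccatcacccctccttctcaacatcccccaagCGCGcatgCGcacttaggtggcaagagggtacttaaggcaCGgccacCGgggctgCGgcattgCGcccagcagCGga
Nap1l5 promoter, chr6:58907077-58907376, minus strand: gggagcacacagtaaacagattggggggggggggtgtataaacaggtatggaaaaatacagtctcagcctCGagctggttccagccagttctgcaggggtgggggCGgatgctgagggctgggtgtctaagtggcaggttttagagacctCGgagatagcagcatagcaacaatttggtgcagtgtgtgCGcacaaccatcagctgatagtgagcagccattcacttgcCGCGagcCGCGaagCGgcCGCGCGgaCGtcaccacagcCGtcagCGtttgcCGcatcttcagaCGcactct
Ndn promoter, chr7:62348027-62348326, plus strand: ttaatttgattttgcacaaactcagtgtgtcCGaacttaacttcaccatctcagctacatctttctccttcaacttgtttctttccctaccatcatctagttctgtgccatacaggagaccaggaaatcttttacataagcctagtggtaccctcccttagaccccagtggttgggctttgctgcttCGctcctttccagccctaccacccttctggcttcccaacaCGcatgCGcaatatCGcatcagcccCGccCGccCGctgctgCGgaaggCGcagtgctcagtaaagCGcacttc
Phlda2 promoter, chr7:143502475-143502774, minus strand: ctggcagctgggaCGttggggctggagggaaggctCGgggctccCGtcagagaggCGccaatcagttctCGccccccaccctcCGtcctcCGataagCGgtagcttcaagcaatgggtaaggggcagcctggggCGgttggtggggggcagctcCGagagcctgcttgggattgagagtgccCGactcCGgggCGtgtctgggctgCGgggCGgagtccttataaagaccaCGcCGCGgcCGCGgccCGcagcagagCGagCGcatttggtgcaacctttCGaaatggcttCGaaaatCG
Usp29 promoter, chr7:6730333-6730632, plus strand: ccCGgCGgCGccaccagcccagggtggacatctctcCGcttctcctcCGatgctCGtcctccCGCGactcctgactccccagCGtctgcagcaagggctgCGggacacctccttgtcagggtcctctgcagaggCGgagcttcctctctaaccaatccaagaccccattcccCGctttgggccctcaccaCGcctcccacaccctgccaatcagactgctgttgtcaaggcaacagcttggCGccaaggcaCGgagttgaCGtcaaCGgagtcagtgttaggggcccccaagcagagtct

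The Dlk1-Meg3 domain on chromosome 12 had lower values in OPCs in its non-coding RNAs. Dlk1, made from the paternal copy, is a transmembrane protein related to Notch ligands, and Meg3, Rian and Mirg are long non-coding RNAs of the maternal copy that also carry small RNAs. Meg3 read 9.26 and 9.34 in OPCs against 11.99 in rosettes and 11.74 in EpiSCs. Its difference was -2.44 ± 0.59 (SE, adjusted p = 0.0804) against EpiSCs and -2.69 ± 0.59 (SE, adjusted p = 0.0951) against rosettes, neither below 0.05, although both OPC arrays lay below either single array by over 2 log2 units. Centring each array on its median put both past the threshold, with adjusted p of 0.0405 and 0.049. Rian, which hosts small nucleolar RNAs, read 6.96 and 7.14 in OPCs against 8.60 in rosettes and 9.31 in EpiSCs, and the difference from EpiSCs was -2.26 ± 0.36 (SE, adjusted p = 0.027), 4.8-fold lower. A further Rian row, shared with another gene, read 11.53 in the EpiSC array, 10.01 in the rosette array, 7.50 and 7.09 in OPCs at passages 3 and 11 and 9.28 and 7.39 in oligodendrocytes at passages 3 and 11. The Mirg row, shared with Mir410, read 10.04 in the EpiSC array, 8.98 in the rosette array, 6.46 and 6.56 in OPCs at passages 3 and 11 and 7.46 and 6.26 in oligodendrocytes at passages 3 and 11. Dlk1 read 10.04 and 9.72 in OPCs against 11.62 in rosettes and 10.36 in EpiSCs. Its differences of -1.74 ± 0.60 (SE, adjusted p = 0.257) from rosettes and -0.48 ± 0.60 (SE, adjusted p = 0.818) from EpiSCs did not pass.

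**Figure D3:**
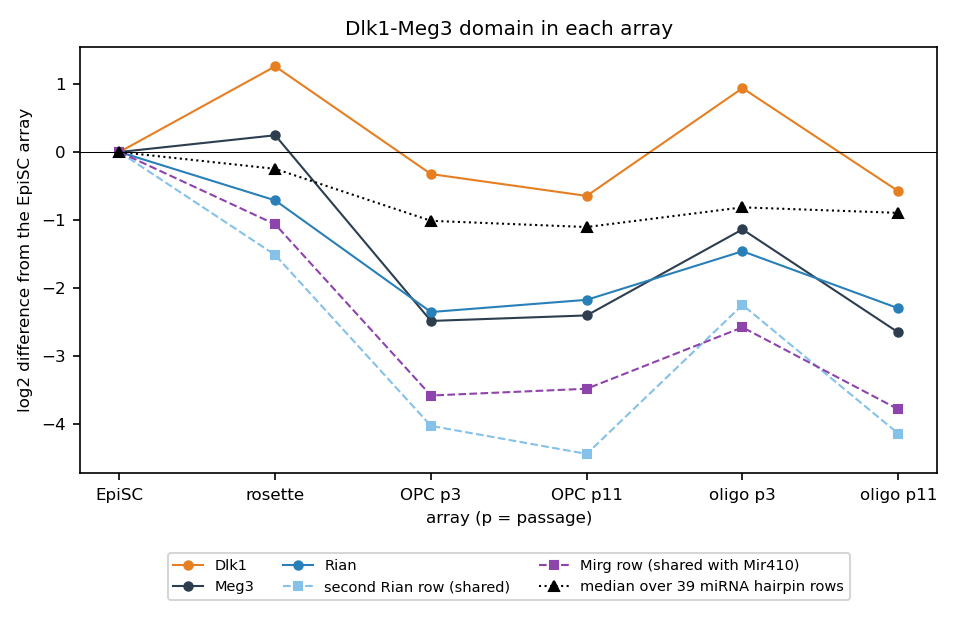
Log2 difference from the EpiSC array for Dlk1, Meg3, Rian, the further shared Rian row, the Mirg row shared with Mir410 and the median over 39 miRNA hairpin rows (vertical axis), in each of the 6 arrays (horizontal axis); each point is 1 array. Every non-coding series is lower in both OPC arrays than in the rosette and EpiSC arrays, and Dlk1 and Meg3 are higher at passage 3 than at passage 11 in oligodendrocytes.

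A large group of microRNAs lies in the same transcripts between Meg3 and Mirg. RefSeq lists 57 hairpins there, of which 39 had a row of their own, and the rows measure RNA of the hairpin's stretch, not the mature microRNA. Of the 39, 15 fell and none rose in OPCs relative to EpiSCs, against 7.01% of all genes, and all 39 had a lower mean in OPCs than in EpiSCs with a median difference of -1.04. The count with passage as a block was 23, and over all genes 2318 passed with it and 1397 without it. Against rosettes 5 fell and none rose, where 3.13% of all genes passed, with a median of -0.61. The block gave 9. Of the 39, 32 (82.1%) had both OPC arrays below the EpiSC and rosette arrays, a pattern of 21.3% of all genes. Most rows were dim, however, and 26 of the 39 had no array above the median of all values. Without either OPC array 2 hairpins passed against EpiSCs, Mir377 and Mir300, where 2.72% of all genes passed without passage 3 and 2.36% without passage 11. Without either oligodendrocyte array 28 did, where 20.8% of all genes passed. Against rosettes the count was 1 without the passage 3 OPC array, 0 without the passage 11 one and 20 without either oligodendrocyte array, and the shares of all genes were 1.04%, 0.782% and 14.5%. With dim genes left out, 13 hairpins were kept among 11601 genes. Of the 13, 4 passed against EpiSCs (Mir377, Mir127, Mir134 and Mir679), where 1227 of all genes kept did. Mir377 alone passed against rosettes, where 534 did. A row was kept if the mean of any group reached the median of all values, and Mir377 and Mir127 reached it only outside OPCs. Hairpins of the same transcript are not independent of each other.

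The 4 hairpins that passed in both comparisons were Mir377, Mir300, Mir543 and Mir154, of which all but Mir377 had no array above the median of all values. Mir377 read 5.92 and 6.01 in OPCs against 10.35 in EpiSCs, a difference of -4.39 ± 0.47 (SE, adjusted p = 0.00955), and 9.85 in rosettes. Mir300 read 5.71 and 5.49 against 8.52 and 7.74, with a difference of -2.92 ± 0.23 (SE, adjusted p = 0.00412) from EpiSCs. Mir543 read 6.03 and 6.14 against 7.86 and 7.76, with a difference of -1.77 ± 0.21 (SE, adjusted p = 0.0119) from EpiSCs. Mir154 read 5.09 and 4.96 against 6.11 and 6.35, with a difference of -1.08 ± 0.17 (SE, adjusted p = 0.0264) from EpiSCs. Mir136 passed against rosettes alone, and Mir127 and Mir134, whose hairpins are among the best known of the cluster, passed against EpiSCs with differences of -1.34 ± 0.16 (SE, adjusted p = 0.0132) and -1.43 ± 0.26 (SE, adjusted p = 0.04). Mir382 differed by -3.45 ± 0.78 (SE, adjusted p = 0.0687), a large difference between OPCs and EpiSCs that did not pass. The mature sequences of the 4 are printed from RefSeq, build GRCm38.p6, plus strand, with the seed at bases 2 to 8 in capitals. The 74 mature sequences of the measured hairpins carry 72 different seeds, and no 2 of those printed share one.
mmu-miR-377-5p, chr12:109740515-109740536: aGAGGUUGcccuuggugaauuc
mmu-miR-377-3p, chr12:109740553-109740574: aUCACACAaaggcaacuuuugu
mmu-miR-300-5p, chr12:109724318-109724339: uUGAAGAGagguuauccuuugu
mmu-miR-300-3p, chr12:109724363-109724384: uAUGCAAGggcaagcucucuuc
mmu-miR-543-5p, chr12:109717269-109717289: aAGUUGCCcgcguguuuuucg
mmu-miR-543-3p, chr12:109717304-109717325: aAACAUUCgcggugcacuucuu
mmu-miR-154-5p, chr12:109738438-109738459: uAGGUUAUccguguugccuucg
mmu-miR-154-3p, chr12:109738474-109738495: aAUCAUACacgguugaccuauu

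**Figure D4:**
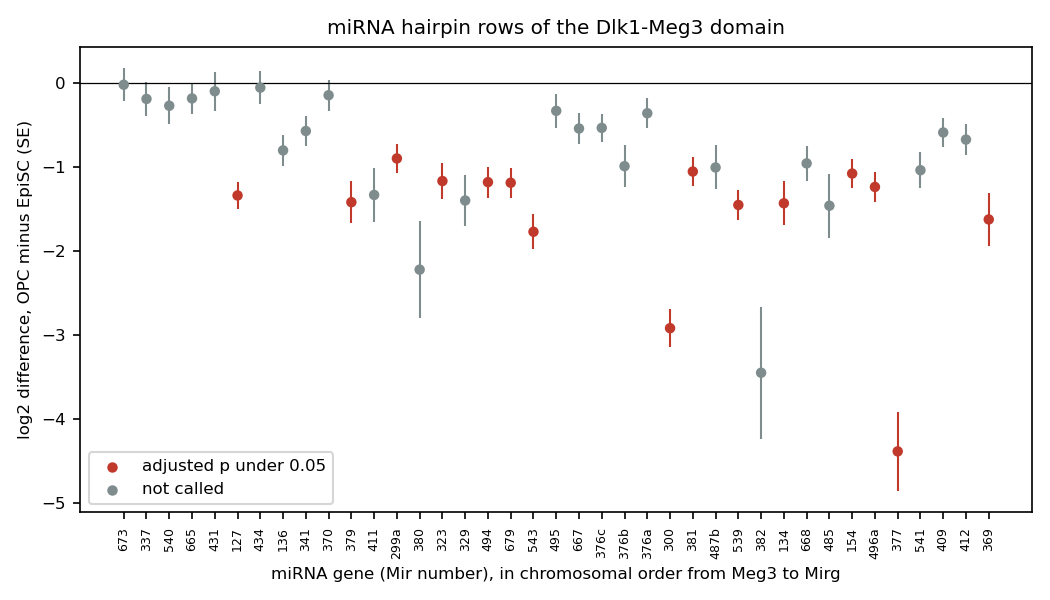
Log2 difference between OPCs (2 arrays) and EpiSCs (1 array) for the 39 hairpin rows of the domain (horizontal axis, in chromosomal order), with bars for the standard error of the limma fit. All 39 points lie below 0, and the 15 red ones had an adjusted p under 0.05; Mir377 is the lowest at -4.39.

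The step into neural tissue was read from 1 rosette and 1 EpiSC array, and is given as values and folds that were not tested. Of the 31 genes, 8 were at least 2-fold higher and 3 at least 2-fold lower in rosettes than in EpiSCs, together 35.5%, where 10.6% of all genes were that far apart (6.91% higher and 3.69% lower). The median difference was 0.38 over the 31 and -0.07 over all genes. At 4-fold, 2 were higher and 1 lower, where 2.54% of all genes were (1.75% higher and 0.797% lower). Nnat read 13.54 in rosettes and 11.43 in EpiSCs, Ndn 12.78 and 10.72, and Phlda2 8.07 and 12.20. The other members above 2-fold were Plagl1, a zinc-finger transcription factor, at 12.10 in rosettes and 10.11 in EpiSCs, Nap1l5 (9.47 and 7.77), Usp29, a deubiquitinase (9.37 and 7.67), Mkrn3 (8.77 and 7.35), Dlk1 (11.62 and 10.36) and Zim1, a zinc-finger gene (9.10 and 7.92). Calcr (8.19 and 10.09) and Asb4 (9.72 and 10.73) were the lower ones beside Phlda2. Of the 15 paternally expressed genes 7 were at least 2-fold higher and none lower. Of the 13 maternally expressed genes 1 was higher and 3 lower. Of 9 neuron markers, 8 were also at least 2-fold higher in rosettes than in EpiSCs, and their part in these values was not tested. In 13 of the 31 genes the rosette array was the highest of the 6, where 19.6% of all genes had it so.

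Relative to rosettes, 1 of the 31 genes fell in OPCs and none rose, or 3.23%, where 3.13% of all genes passed (1.26% higher and 1.87% lower). The median difference over the 31 was -0.28, against 0.02 over all genes tested. The same OPC arrays enter here and in the comparison with EpiSCs. Usp29 read 7.95 and 7.53 in OPCs against 9.37 in rosettes, a difference of -1.62 ± 0.23 (SE, adjusted p = 0.0326). That call missed the threshold with quantile normalisation (adjusted p = 0.0697) and with either OPC array left out (adjusted p = 0.0613 without passage 3 and 0.137 without passage 11). Its neighbour Peg3, a zinc-finger gene expressed with it, read 11.82 and 11.35 in OPCs against 11.74 in rosettes (adjusted p = 0.943), and Zim1 read 8.27 and 7.87 against 9.10 (adjusted p = 0.3). Plagl1 read 10.21 and 9.71 in OPCs against 12.10 in rosettes, a difference of -2.15 ± 0.42 (SE, adjusted p = 0.073). Its adjusted p was 0.0152 once passage was blocked. Copg2, a coatomer subunit that overlaps Mest, read 11.20 and 10.97 against 12.19, with an adjusted p of 0.133 and 0.0428 with the block. With the block 4 imprinted genes passed, all lower in OPCs, and 1206 genes of all tested against 624 without it. Without either oligodendrocyte array 13 of the 31 passed, where 14.5% of all genes did. Without the block, 11 of the 31 were lower and 2 higher at an unadjusted p under 0.05, which 15.4% of all genes reached. Of 9 neuron markers, 4 were lower in OPCs than in rosettes by the test and none higher, and their part in these values was not tested.

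The last step of differentiation, by thyroid hormone and growth factor withdrawal, was read from 2 oligodendrocyte and 2 OPC arrays. With limma, 0 of the 31 passed, where 0.446% of all genes did (0.396% higher and 0.0502% lower). At an unadjusted p under 0.05, 3 were higher and 2 lower, where 12.3% of all genes reached that. The median difference over the 31 was -0.01 and over all genes 0.00. The largest differences were those of Mest, Plagl1 and Inpp5f. Mest read 13.48 and 11.79 in oligodendrocytes against 13.90 and 13.81 in OPCs, a difference of -1.23 ± 0.54 (SE, adjusted p = 0.458). Plagl1 read 11.51 and 10.60 in oligodendrocytes against 10.21 and 9.71 in OPCs, a difference of 1.10 ± 0.35 (SE, adjusted p = 0.306). Inpp5f read 10.12 and 9.49 in oligodendrocytes against 10.70 and 10.71 in OPCs, a difference of -0.90 ± 0.23 (SE, adjusted p = 0.234). All 3 had the same sign at passage 3 and passage 11. Values for Cd81, Osbpl5, Impact, Sgce and Igf2 were also higher in both oligodendrocyte arrays than in both OPC arrays. Cd81 read 14.12 and 14.33 against 13.92 and 14.01, and Osbpl5 10.22 and 9.87 against 9.56 and 9.55. Impact read 11.47 and 11.63 against 11.18 and 11.07. Values for Nnat, Ndn, Peg12 and Igf2r were lower in both, at 13.02 and 12.66 against 13.33 and 13.34 for Nnat. None of these genes passed. Leaving out an oligodendrocyte array, which removes the spread of its pair, gave 7 of 31 called without passage 3, where 14.6% of all genes passed, and 6 without passage 11, where 6.85% did. Peg10 was among both sets with opposite signs, -0.95 without passage 3 (adjusted p = 0.00466) and 0.98 without passage 11 (adjusted p = 0.00643). The Peg10 values were 13.33 and 11.41 in oligodendrocytes at passages 3 and 11 and 12.49 and 12.22 in OPCs.

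Passage was compared within each cell type, since the cultures were read at an early and a later passage. By the limma fit over both cell types 0 of the 31 genes passed, and 0 of all genes did, with 8 imprinted genes lower and 1 higher at passage 11 at an unadjusted p under 0.05, which 13.9% of all genes reached. The median difference was -0.18 over the 31 and 0.04 over all genes. In oligodendrocytes 5 of the 31 (16.1%) were at least 2-fold lower at passage 11 than at passage 3, where 3.16% of all genes were. In OPCs 0 of the 31 genes were 2-fold apart between passages, where 0.627% of all genes were. The 5 were Peg10 (11.41 at passage 11 against 13.33 at passage 3), Mest (11.79 against 13.48), Dlk1 (9.79 against 11.30), Meg3 (9.09 against 10.60) and Peg3 (10.83 against 11.91). In OPCs the same genes differed between passages by -0.27, -0.09, -0.32, 0.08 and -0.48. Grb10 was lower at passage 11 in both cell types, with differences of -0.77 in OPCs and -0.87 in oligodendrocytes. Nap1l5 was the gene with the largest value the other way, 0.77 in oligodendrocytes. The passage 11 oligodendrocyte array was the lowest of the 6 for 10 of the 31 genes, where 20% of all genes had it so. The passage 3 oligodendrocyte array was the highest of the 6 for 3 of the 31, where 9.73% of all genes had it so. The mesenchyme markers averaged 8.87 in passage 11 oligodendrocytes and 9.92 at passage 3, with 3 of 11 markers at least 2-fold apart (Tagln, Acta2 and Lox), and the matrix genes Col1a1 and Col3a1 read 9.91 and 9.22 at passage 11 and 10.10 and 9.17 at passage 3. The 7 astrocyte markers averaged 10.7 at passage 11 and 11.3 at passage 3 in oligodendrocytes, with 3 of them, Gfap among these (8.69 and 10.50), at least 2-fold apart, and 10.5 and 11.0 in OPCs. Their part in the passage values was not tested.

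**Figure D5:**
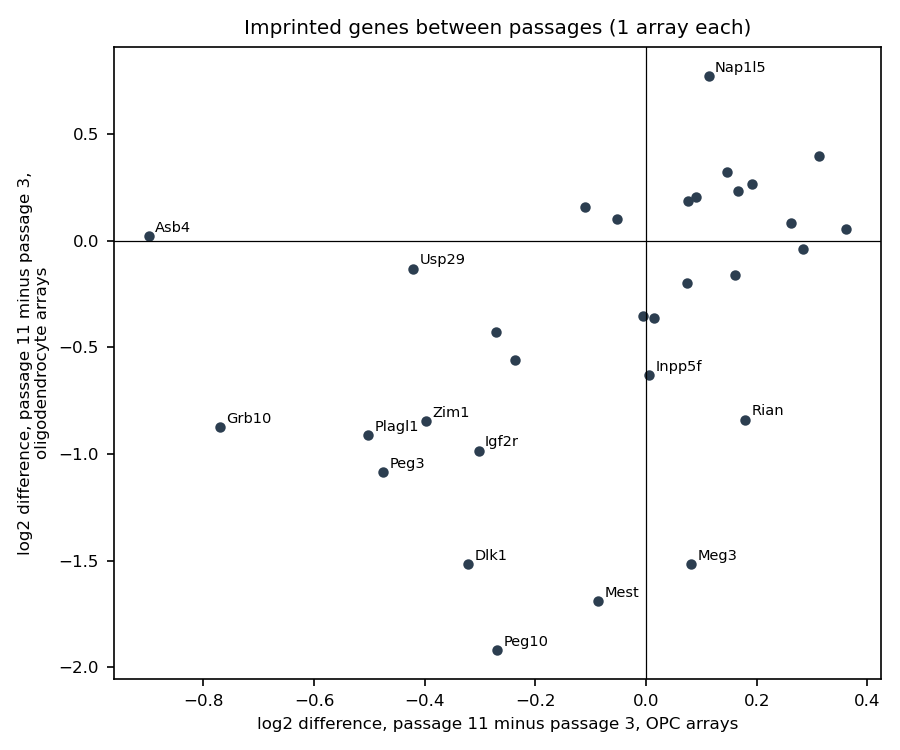
Passage 11 minus passage 3 (log2) for each measured imprinted gene in OPCs and in oligodendrocytes, 1 array a point on each side. Peg10, Mest, Dlk1, Meg3 and Peg3 are below -1 in oligodendrocytes, and no gene reaches -1 or 1 in OPCs.

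The hairpin rows of the Dlk1-Meg3 domain also differed between the oligodendrocyte arrays. In 24 of the 39 hairpins (61.5%) the passage 3 oligodendrocyte array was above both OPC arrays and the passage 11 oligodendrocyte array, where 18% of all genes showed that order. Mir377 read 7.39 and 6.20 in oligodendrocytes of passages 3 and 11 and 5.92 and 6.01 in OPCs. With limma 0 of the 39 passed between oligodendrocytes and OPCs, where 0.446% of all genes did, and 2 had an unadjusted p under 0.05.

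The rows shared with other genes were not tested. The Snrpn row, shared with Snurf, which is made from the same transcript, read 12.09 in the EpiSC array, 11.90 in the rosette array, 11.27 and 10.50 in OPCs at passages 3 and 11 and 11.63 and 11.51 in oligodendrocytes at passages 3 and 11. Snrpn encodes a splicing protein, and its values were lowest in the passage 11 OPC array. Ube3a encodes a ubiquitin ligase, and its row is shared with C230091D08Rik, Srebf2 and P3h3, so its values cannot be assigned to Ube3a. That row read 10.40 in the EpiSC array, 10.60 in the rosette array, 10.55 and 10.47 in OPCs at passages 3 and 11 and 10.67 and 10.07 in oligodendrocytes at passages 3 and 11. Gnas encodes a G protein subunit, and its row is shared with Gnasas1. The Gnas row read 11.35 in the EpiSC array, 11.67 in the rosette array, 11.67 and 11.74 in OPCs at passages 3 and 11 and 11.66 and 11.64 in oligodendrocytes at passages 3 and 11. Both of these rows kept within 1 log2 unit over the 6 arrays.

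Other genes known to be imprinted, and genes that keep imprints, give a setting for these results. The share of all genes that passed was 7.01% against EpiSCs and 3.13% against rosettes. Of 39 further imprinted genes 35 were measured. In OPCs against EpiSCs, 1 of them rose, the paraoxonase gene Pon2 (0.98 ± 0.19, adjusted p = 0.047), and 3 fell, namely Zdbf2 (-2.49 ± 0.41, adjusted p = 0.0306), Sfmbt2, a Polycomb-related gene (-2.13 ± 0.25, adjusted p = 0.0126), and Pon3 (-1.26 ± 0.17, adjusted p = 0.0178). In OPCs against rosettes Gatm, a creatine synthesis enzyme, rose (3.39 ± 0.37, adjusted p = 0.0159), and Cdkn1c, an inhibitor of the cell cycle (-2.01 ± 0.22, adjusted p = 0.0158), and Th, which makes a dopamine precursor (-1.53 ± 0.21, adjusted p = 0.0294), fell. Of 21 genes for imprint maintenance and DNA methylation, 4 fell in OPCs against EpiSCs and none rose. These were the DNA methyltransferase genes Dnmt3b (-3.31 ± 0.18, adjusted p = 0.00218) and Dnmt3a (-1.36 ± 0.19, adjusted p = 0.0197), their cofactor Dnmt3l (-1.76 ± 0.19, adjusted p = 0.00969) and Tet1, which oxidises methylcytosine (-1.12 ± 0.19, adjusted p = 0.0343). Zfp57, a zinc-finger protein that binds methylated imprinting control regions, read 10.98 and 10.60 in OPCs against 11.95 in EpiSCs. Of 14 measured IGF pathway genes 1 rose and 1 fell in OPCs against EpiSCs. Igfbp3, which binds IGFs outside the cell, rose (1.56 ± 0.26, adjusted p = 0.032), and rose against rosettes too (3.77 ± 0.26, adjusted p = 0.00616), while Igf2bp1, which binds Igf2 RNA, fell (-3.63 ± 0.73, adjusted p = 0.0496). Most of these calls rest on both OPC arrays. Without either one, Dnmt3b passed still against EpiSCs and Gatm and Igfbp3 against rosettes. Those that missed the threshold without either were Pon2 (adjusted p = 0.205 without passage 3 and 0.252 without passage 11), Pon3 (0.121 and 0.0962), Dnmt3a (0.0732 and 0.12), Dnmt3l (0.0521 and 0.051), Tet1 (0.188 and 0.135) and Igfbp3 (0.115 and 0.12) against EpiSCs, and Cdkn1c (0.0664 and 0.0616) and Th (0.133 and 0.122) against rosettes. Zdbf2 (0.078), Sfmbt2 (0.051) and Igf2bp1 (0.0868) missed it against EpiSCs without passage 11 alone. With quantile normalisation Zdbf2 (0.0551), Pon2 (0.101) and Igf2bp1 (0.0689) missed it too, and Pon2 also with dim genes left out (0.0507) and with a variance trend (0.0705). With passage as a block Gatm passed against EpiSCs (adjusted p = 0.033), and Zdbf2 (0.0128) and Igf2bp1 (0.00846) against rosettes.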

How the data were processed

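Total RNA of 6 samples was labelled from sense-strand cDNA and hybridised to Affymetrix arrays. The authors deposited log2 expression values that had been normalised by RMA (Affymetrix Expression Console is named too), per the submitters' processing notes. For genome build and annotation release, the sources used here give nothing. The value table had 35556 rows, of which 21789 carried 1 gene symbol in the platform annotation, 1621 several and 12146 none. The row with the highest mean was used for a gene with several rows (999 genes), which left 19938 genes, and all were tested.

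Samples were grouped by their labels. The list of genes, their alleles and the other lists were chosen with earlier results of these data known. All measured members are named, and from the lists of other imprinted genes, methylation regulators and IGF pathway genes those called in any tested comparison. Markers and hairpins are given as counts with examples, chosen after their values were seen. limma 3.58.1 in R 4.3.3 was fitted once over the 4 groups (2 residual and 3.322 prior degrees of freedom), where the lone EpiSC and rosette arrays borrow the spread of the OPC and oligodendrocyte pairs, with Benjamini-Hochberg adjustment and a threshold of 0.05, two-sided. Passage was tested in a fit of the 4 OPC or oligodendrocyte arrays that had cell type as covariate (1 residual degree of freedom). The arrays were paired by the passage in their titles. That the oligodendrocytes of a passage were made from the very OPC culture that was arrayed is an assumption. The differences between passages in the 2 cell types correlated at r = 0.5031 over 19938 genes. Promoters and miRNAs were matched by symbol in RefSeq tables of GRCm38.p6, with promoters on chromosome 18 left out. The number of arrays limits the precision.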

Additional observations from a re-analysis of the deposited data

Results flagged for a closer look

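Peg10 is listed because the difference between oligodendrocytes and OPCs had opposite signs at the 2 passages. Oligodendrocytes minus OPCs was 0.84 at passage 3 and -0.81 at passage 11, both beyond 0.486, the 95th percentile of the absolute passage difference over all genes in OPCs, and both within 0.905, that percentile in oligodendrocytes. The difference between the passages was not tested.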

How the results depend on the processing

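With 1 array of EpiSCs, 1 of rosettes and 2 of each other cell type, the spread behind every test is that of the OPC and oligodendrocyte pairs, and counts depend on which arrays enter. In OPCs against rosettes, imprinted genes called (1) were 0 with quantile normalisation, 3 with median centring, 4 with passage as replicate block, 0 to 13 with each replicate left out and 13 with only the arrays of the groups compared. Genes called (624) were 1206 with the block, 156 to 2897 with each replicate left out and 2897 with only those arrays. Hairpins called (5) were 1 without dim genes, 8 with a variance trend, 9 with the block, 0 to 20 with each replicate left out and 20 with only those arrays. In OPCs against EpiSCs, imprinted genes called (8) were 5 to 20 with each replicate left out and 20 with only those arrays. Genes called (1397) were 2318 with the block, 470 to 4154 with each replicate left out and 4154 with only those arrays. Hairpins called (15) were 4 without dim genes, 23 with the block, 2 to 28 with each replicate left out and 28 with only those arrays. The high counts came from fits without an oligodendrocyte array, in which the spread rests on the OPC pair, and the low ones from fits without an OPC array. In oligodendrocytes against OPCs, genes called (89) were 14 with quantile normalisation, 157 with median centring and 2 to 2919 with each replicate left out, and imprinted genes called (0) reached 7. Peg10 in that comparison (0.02) turned to -0.95 without oligodendrocyte replicate 1, the passage 3 array, and was 0.98 without replicate 2. For passage, genes called (0) were 2 with median centring and 1 with a variance trend, and leaving out an array leaves no residual spread to test with. The cause of the changes under other normalisations was not tested. The block ended no call among the named genes, and those it added are given with the results.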

Other observations

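A pair of microRNA hairpins lies inside other imprinted genes. Mir483, in an intron of Igf2, read 10.42 in the EpiSC array, 10.01 in the rosette array, 10.14 and 10.41 in OPCs at passages 3 and 11 and 10.14 and 10.43 in oligodendrocytes at passages 3 and 11. Mir335, in an intron of Mest, read 6.56 in the EpiSC array, 6.61 in the rosette array, 6.66 and 7.07 in OPCs and 6.59 and 6.68 in oligodendrocytes at passages 3 and 11, all below the median of all values. The EpiSC array was the highest of the 6 for 10 of the 31 measured imprinted genes, where 26.1% of all genes had it so, and the lowest for 8, where 18.6% did. Cd81 was the 1 gene with its lowest value in the rosette array, where 23.5% of all genes had it so. Of the 31 genes, 12 were lower at passage 11 in both cell types, where 28.5% of all genes were, and 9 were higher in both, where 40.1% were.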
